A study of Mus musculus with 6 samples.

Results

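Contractile genes controlled by serum response factor (SRF) were followed in cultured mouse astrocytes across 10 gene symbols: Acta2, Actg2, Tagln, Cnn1, Cnn2, Myl9, Tpm1, Tpm2, Cald1 and Srf itself. Members were the probes of the authors' processed value table whose platform gene symbol was one of these, which gave 9 probes for 9 genes, 1 each, of 19321 named genes and 23473 probes on the array. Myl9 was matched by no probe and has no value here. All 9 probes lay above background on all 6 arrays. The astrocytes came from the cortex of Chd7flox/flox C57BL/6J mice at P0, and every culture, Cre and control alike, carried the floxed alleles of Chd7, the gene of a chromatin remodeller that the Cre recombinase is meant to disrupt. Cells received a Cre lentivirus (3 arrays, replicates 1 to 3) or a control lentivirus (3 arrays, replicates 1 to 3), were kept in 10% fetal bovine serum with FGF2, EGF and B-27, and were harvested 3 days after infection. Cre was present in no control culture, so what the recombinase does by itself cannot be told apart from what losing Chd7 does. The genes were chosen by the spread of their levels between replicate numbers, set against the Cre to control differences, in earlier results from these arrays, so both are given below as descriptions.

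SRF is a transcription factor that binds a short DNA element named the CArG box. With cofactors of the myocardin family it turns on genes of the contractile actin cytoskeleton. Monomeric actin holds some of these cofactors in the cytoplasm, and polymerisation of actin releases them. With ternary complex factors SRF turns on immediate early genes. The contractile programme is best known from smooth muscle, pericytes and myofibroblasts, and cells kept on plastic in serum can carry it too.

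Promoter windows give the sequence context of that control. RefSeq's windows for GRCm38.p6, which run from 250 bases before to 50 bases after a start site, held 9 windows for 8 of the 10 genes, Cald1 having more than one. Actg2 and Tagln had no window. An exact CArG box (a pair of C, then a run of A or T, then a pair of G, a pattern that reads the same on either strand) was found in 3 of these 9 windows (33.3%), against 535 of 32851 windows of all genes (1.63%). With at most 1 mismatch allowed, the counts were 6 of 9 (66.7%) and 6936 of 32851 (21.1%). The genes were listed as SRF targets, so these counts are no test of control by SRF. Of the contractile genes with a level here, only Cnn2 held an exact box in its window. The Srf window held exact boxes at positions -82 to -73 and -62 to -53 from the start site, Cnn2 at -56 to -47 and Myl9 at -161 to -152. Acta2 and Tpm1 each held 2 boxes with 1 mismatch, Tpm2 and Cnn1 held none, and a window without the letters says nothing of sites elsewhere. The 250 bases before the start site are shown for Srf, which regulates its own gene, for Cnn2 as a target with an exact box, for Acta2 as the classic smooth muscle actin, and for Tpm2, whose level varied most, with exact boxes in capitals, or for Acta2 the boxes with 1 mismatch.
Srf, chr17:46556163-46556412, strand -: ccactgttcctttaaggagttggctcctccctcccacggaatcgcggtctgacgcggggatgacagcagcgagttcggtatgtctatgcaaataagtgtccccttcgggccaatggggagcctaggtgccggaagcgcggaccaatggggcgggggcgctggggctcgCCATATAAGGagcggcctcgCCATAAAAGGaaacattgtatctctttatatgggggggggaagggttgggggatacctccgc
Cnn2, chr10:79988350-79988599, strand +: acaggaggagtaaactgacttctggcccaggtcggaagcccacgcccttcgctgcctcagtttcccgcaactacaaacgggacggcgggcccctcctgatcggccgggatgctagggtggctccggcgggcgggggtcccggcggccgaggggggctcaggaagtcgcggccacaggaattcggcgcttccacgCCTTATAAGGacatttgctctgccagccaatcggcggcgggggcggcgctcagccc
Acta2, chr19:34255374-34255623, strand -: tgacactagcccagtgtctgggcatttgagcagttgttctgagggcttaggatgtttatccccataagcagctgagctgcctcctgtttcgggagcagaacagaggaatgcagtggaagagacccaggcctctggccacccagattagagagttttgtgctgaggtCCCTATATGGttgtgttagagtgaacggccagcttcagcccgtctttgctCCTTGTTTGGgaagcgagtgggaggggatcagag
Tpm2, chr4:43523555-43523804, strand -: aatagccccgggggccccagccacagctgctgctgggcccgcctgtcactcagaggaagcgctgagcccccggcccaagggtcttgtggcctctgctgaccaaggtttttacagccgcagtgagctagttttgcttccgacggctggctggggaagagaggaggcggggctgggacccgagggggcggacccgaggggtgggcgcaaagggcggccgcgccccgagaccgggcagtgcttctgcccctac

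The targeted gene checked the labels. In the authors' processed values, a linear intensity scale, the brighter Chd7 probe (M300016343) read 8, 7 and 8 on the Cre arrays and 42, 89 and 46 on the control arrays, and the groups did not overlap. On the same scale the dimmer probe (M400002483) read 9, 6 and 11 on the Cre arrays and 11, 13 and 14 on the control arrays. The brighter probe averaged 5.99 ± 0.02 on the Cre arrays and 7.12 ± 0.32 on the control arrays in log2 intensity (SD, n = 3 each), a difference of -1.13 (SE 0.16) with a limma adjusted p of 0.399 over all kept probes. Between 83.7 and 90.7% of probes lay above background on an array, with the fewest on Cre replicate 2, and all 12 astrocyte markers listed for the check had a probe above background on at least 3 arrays. Of 23473 probes 20747 passed that filter, as did all 11 fibroblast and meningeal and all 6 neuron markers. The count therefore does not single out astrocytes. Levels below are log2 intensities after background correction and quantile normalisation unless the authors' values are named. The correction adds 50 units, so a probe with no signal sits near 5.64 and changes of dim probes are compressed. The levels of different probes cannot be set against each other.

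Among the contractile genes, the range between replicate numbers was larger than the mean difference between the viruses. The spread between numbers was taken as the range over replicates 1, 2 and 3 of the mean of the Cre and the control array with that number. This range ran from 0.57 log2 units for Cnn1 to 1.82 for Tpm2 in the 8 contractile genes and was 0.08 for Srf. The absolute Cre minus control difference of the means ran from 0.02 for Actg2 to 0.14 for Cald1 in the same 9 probes. The range was above the absolute difference in 9 of 9 probes, but also in 80% of all kept probes, and above 2 times that difference in 8 of 9, all but Srf, against 55.4%. Differences of opposite sign in same-numbered pairs cancel in that mean. The SD of the pair differences was above the SD between numbers for Acta2 (0.39 against 0.37), Cnn2 (0.37 against 0.35) and Srf (0.13 against 0.04). For Cnn1 the 2 were close (0.28 against 0.29). It was lower for Tpm2 (0.33 against 0.92), Tpm1 (0.37 against 0.65), Actg2 (0.27 against 0.59), Tagln (0.18 against 0.35) and Cald1 (0.03 against 0.35). The 2 SDs are not on one scale, as a difference of 2 arrays varies more than their mean. For arrays that vary independently of their number, the SD of pair differences is expected at 2 times the SD between numbers. Equal SDs therefore do not mean that pairs varied as much as numbers. A range of at least 0.5 log2 units was reached by 8 of 9 probes, all but Srf, against 5.11% of all kept probes. With a single array left out this count was 7 to 8: Cnn2 stood at 0.39 without Cre replicate 1, Cnn1 at 0.34 without control replicate 1 and Acta2 at 0.39 without control replicate 3. A range of at least 1 log2 unit, or 2-fold, was reached by Tpm2, Tpm1 and Actg2, against 0.694% of all kept probes. The median range was 0.69 over the 9 probes and 0.12 over 20727 probes with a value on all 6 arrays. The authors' values had a median of 25 on every array, while the 8 contractile genes read 47 to 9409. Ranges of dim probes are compressed, so these shares and medians do not compare probes of like brightness. Both viruses shared the direction: replicate 1 lay above replicate 2 in both groups for 8 of 9 probes (26.6% of all probes). Replicate 1 was highest and replicate 2 lowest in both groups for Tpm2, Tpm1, Actg2, Tagln and Cald1, 5 of 9 probes against 4.14% of all probes. The same number was highest in both groups for 7 of 9 (43.9% of all probes), and all 3 numbers kept one order for 6 of 9 (25.7%). Replicate 1 was highest in both groups for 7 (11.9%) and replicate 2 lowest in both for 6 (15.4%). The genes were chosen for this pattern, so nothing is read from these counts. In such cultures, fewer cells of a type and less RNA per cell cannot be told apart.

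**Figure D1:**
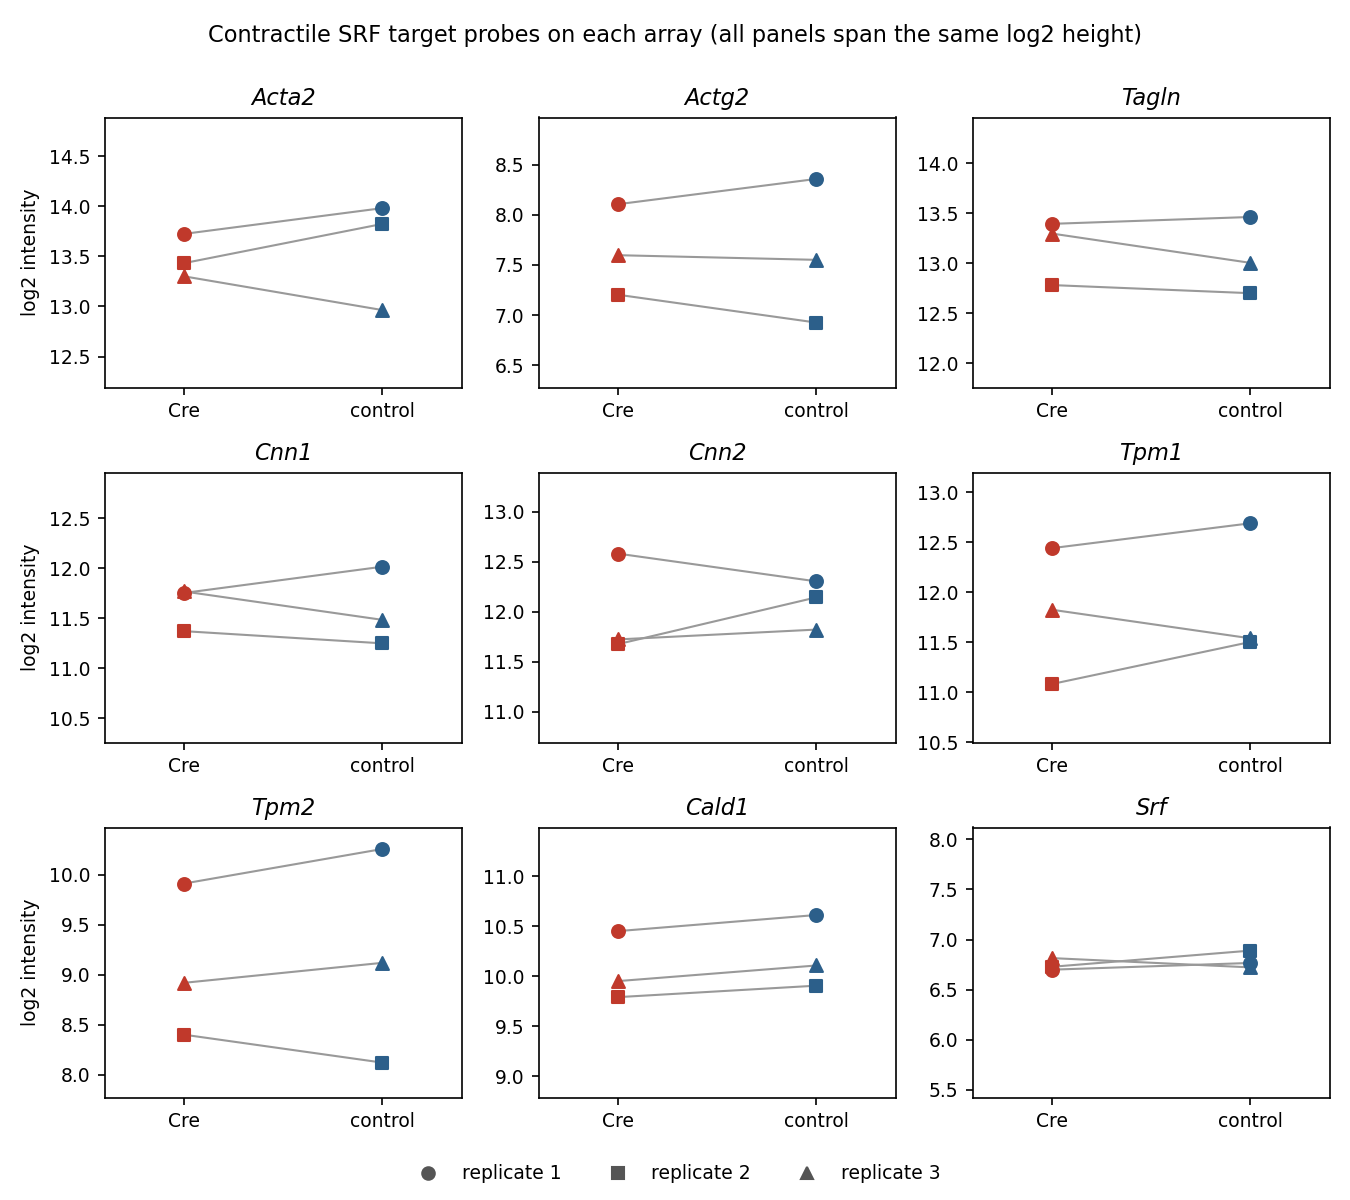
Log2 intensity (vertical axis) of each of the 9 contractile SRF target probes on the 3 Cre arrays (red, left) and the 3 control arrays (blue, right). Symbols mark replicate numbers, grey lines join same-numbered arrays, and all panels span the same log2 height; Tpm2 is spread over 1.82 log2 units between numbers, and its 3 lines do not cross.

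Tropomyosins coil along actin filaments and gate their binding to myosin, and Tpm2 had the widest range of the 9 probes on this scale. It stood at 9.91, 8.40 and 8.92 on Cre replicates 1, 2 and 3, against 10.26, 8.12 and 9.12 on control replicates 1, 2 and 3. Replicate 1 was high and replicate 2 low with either virus, and all 3 Cre values lay within the range of the control values. In the authors' linear values Tpm2 read 525, 146 and 254 on the Cre arrays and 672, 157 and 322 on the control arrays. The highest array was thus 3.6-fold above the lowest among the Cre arrays and 4.28-fold among the control arrays. Within pairs, Cre minus control was -0.35, 0.28 and -0.20 log2 units for Tpm2, of mixed sign. The range of Tpm2 between numbers was reached or passed by 0.0289% of all probes. Tpm1 stood at 12.44, 11.08 and 11.82 on the Cre arrays, against 12.69, 11.50 and 11.54 on the control arrays. Replicate 1 was again the highest of each group, while control replicates 2 and 3 of Tpm1 lay close together. In the authors' values Tpm1 read 3192, 1110 and 2102 on the Cre arrays and 3731, 1861 and 1968 on the control arrays. Its range between numbers was 1.27 log2 units, and its pair differences were -0.25, -0.42 and 0.29.

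The smooth muscle actins did not share one order of the replicate numbers. Actg2, the gamma actin of enteric smooth muscle, stood at 8.11, 7.20 and 7.60 on the Cre arrays, against 8.36, 6.92 and 7.55 on the control arrays, with a range between numbers of 1.17. In the authors' values Actg2 read 132, 50 and 84 on the Cre arrays and 161, 47 and 85 on the control arrays, so replicate 3 was nearly equal under both viruses. The order of Actg2 and Tpm1 depended on the scale: the range of Actg2 was 1.42 against 1.28 for Tpm1 with an offset of 16, 1.59 against 1.29 with plain subtraction of the blank mean, and 1.33 against 1.25 in the authors' values. Acta2, the alpha actin of vascular smooth muscle and myofibroblasts, stood at 13.73, 13.43 and 13.30 on the Cre arrays, against 13.98, 13.83 and 12.96 on the control arrays. Replicate 1 of Acta2 was highest in both groups, but replicate 3, not replicate 2, was lowest in both. Its range was 0.72 between numbers and its pair differences were -0.26, -0.39 and 0.34. The SD was 0.39 for its pair differences and 0.37 between numbers (n = 3 each), SDs that are not on one scale, as said above. Actin genes have near-identical paralogs, and the probe sequences were not used here, so how far each actin probe reads other actins is not known.

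The remaining contractile genes encode actin-binding proteins. Tagln, the gene of transgelin, stood at 13.39, 12.78 and 13.30 on the Cre arrays, against 13.46, 12.70 and 13.00 on the control arrays, a range between numbers of 0.69. Cald1, the gene of caldesmon, stood at 10.45, 9.79 and 9.95 on the Cre arrays, against 10.61, 9.91 and 10.11 on the control arrays. Cald1 had the same order of numbers in each group and was lower with Cre in all 3 pairs, with differences of -0.16, -0.11 and -0.16; 15.5% of all probes were also lower in all 3. In the authors' values Cald1 read 776, 426 and 551 on the Cre arrays and 870, 618 and 696 on the control arrays. The range of Cald1 between numbers, 0.68, was 4.74 times the size of its mean pair difference. Calponin 1, a marker of differentiated smooth muscle (Cnn1), stood at 11.75, 11.37 and 11.77 on the Cre arrays, against 12.01, 11.25 and 11.48 on the control arrays. Replicate 2 of Cnn1 was lowest in both groups, while Cre replicates 1 and 3 were nearly equal. Calponin 2, which is found more widely than calponin 1 (Cnn2), stood at 12.58, 11.68 and 11.72 on the Cre arrays, against 12.30, 12.15 and 11.82 on the control arrays. Its replicate 1 was highest in both groups and its other numbers changed places, with pair differences of 0.28, -0.47 and -0.10.

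Srf itself did not share the spread of its target genes. It stood at 6.70, 6.73 and 6.81 on the Cre arrays, against 6.77, 6.89 and 6.72 on the control arrays, and the groups overlapped. Srf read 32, 29 and 37 in the authors' values on the Cre arrays and 34, 45 and 34 on the control arrays. The highest array was 1.28-fold above the lowest among the Cre arrays and 1.32-fold among the control arrays on that scale. The Srf range between numbers of 0.08 was reached or passed by 65.1% of all probes, and no number was highest in both groups. The probe was dim, so its log2 range is compressed more than those of the contractile genes.

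**Figure D2:**
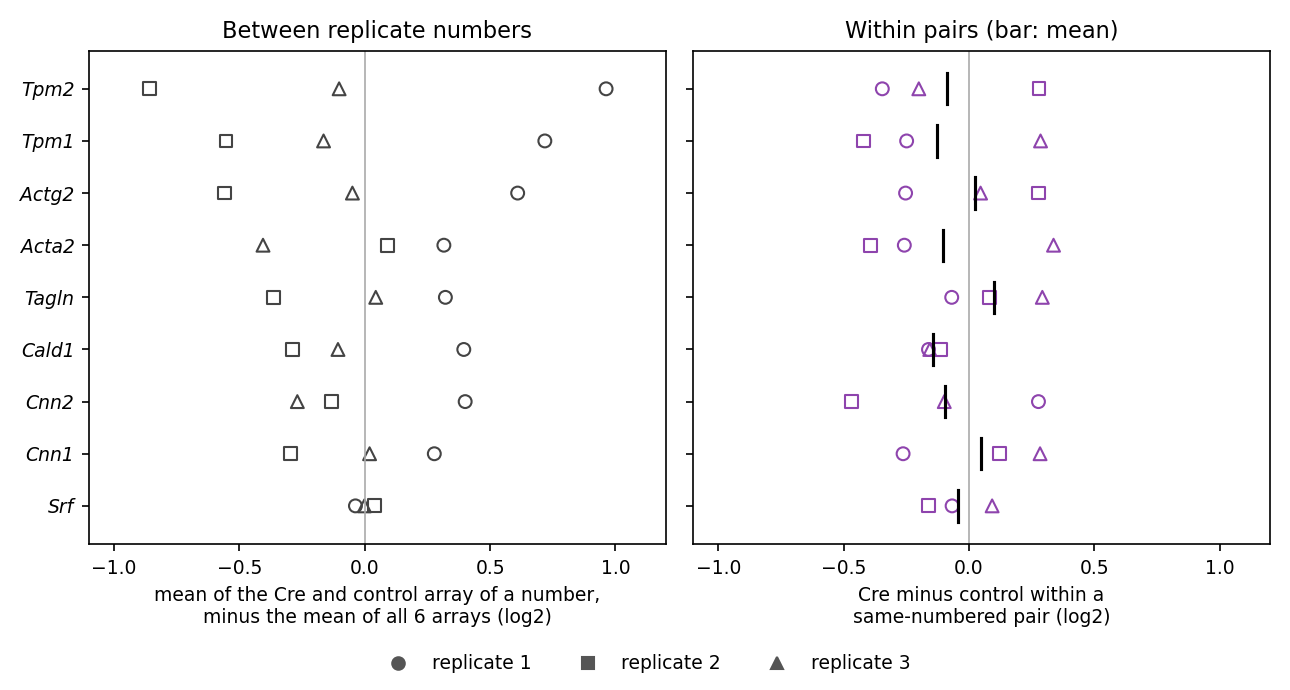
For each of the 9 probes, the left panel gives the mean of the Cre and control array of a replicate number minus the mean of all 6 arrays, and the right panel the Cre minus control difference in each same-numbered pair with its mean as a bar, both in log2 units. Tpm2, Tpm1 and Actg2 spread widest on the left (ranges of 1.82, 1.27 and 1.17), and on the right the pair values of every probe but Cald1 fall on both sides of 0.

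Between viruses, none of the 9 probes passed. Tpm2 averaged 9.08 ± 0.77 on the Cre arrays and 9.17 ± 1.07 on the control arrays, and Cald1 averaged 10.07 ± 0.34 on the Cre arrays and 10.21 ± 0.36 on the control arrays (log2, SD, n = 3 each). Acta2 averaged 13.49 ± 0.22 on the Cre arrays and 13.59 ± 0.55 on the control arrays, and Srf 6.75 ± 0.06 on the Cre arrays and 6.79 ± 0.09 on the control arrays. In each case the SD within a group was larger than the difference between the groups. The differences (Cre minus control, SE in limma without a replicate term) were -0.13 (SE 0.47) for Tpm1, -0.09 (SE 0.64) for Tpm2, 0.02 (SE 0.42) for Actg2, -0.10 (SE 0.29) for Acta2, 0.10 (SE 0.25) for Tagln, -0.14 (SE 0.25) for Cald1, 0.05 (SE 0.22) for Cnn1, -0.10 (SE 0.28) for Cnn2 and -0.05 (SE 0.06) for Srf. The limma adjusted p over 20747 probes was 0.999 for each, and 0 of 9 members against 0% of all probes passed 0.05. At an unadjusted p under 0.05 there were 0 of 9 members and 1159 of all probes (5.59%), and for 0 of 9 the groups did not overlap, against 10.5% of all probes. For Tpm2 the 95% interval of the difference ran from -1.68 to 1.51, an interval that holds changes of over 2-fold in either direction when the pairing of arrays is ignored. Blocking on the replicate number takes the spread between numbers out of the error, and the SE was then 0.14 for Tpm2 and 0.036 for Cald1. The interval for Tpm2 was then -0.48 to 0.31, which holds no 2-fold change, and that for Cald1 was -0.25 to -0.04. The smallest limma adjusted p among the members with that block was 0.433, for Cald1, and 0 of 9 passed (0% of all probes). At an unadjusted p under 0.05 the blocked fit held 1 member, Cald1, and 9.32% of all probes. Cre lay below control on the mean for 6 of 9 members, against 50.3% of all probes. The median difference was -0.09 over the 9 probes and -0.00057 over all probes. The sign of all 9 differences turned in at least 1 fit that left out a single array. Those fits held no replicate term and kept the same-numbered partner of that array, so spread between numbers enters their differences. With the scanner's local background column the differences ran from -2.49 for Cnn2 to 0.65 for Tagln. Whether a replicate was its own culture or animal is not stated in the labels, and the p-values therefore rest on array-to-array spread that may be technical.

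Other genes of the pathway were read from lists, each gene by its brightest kept probe, and 0 genes of the lists given here passed the limma adjusted threshold in either direction. The median range between numbers over all 17266 genes was 0.13. Fhl2, a LIM-domain cofactor of SRF that is itself an SRF target, had a range of 1.13 and stood at 8.89, 7.59 and 8.11 on the Cre arrays and 8.56, 7.61 and 8.12 on the control arrays. The SRF cofactor gene Mrtfb had a range of 0.05. Mrtfb lay close to background, at 6 to 9 units in the authors' values.

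Among other contractile and actin-binding genes, 29 of 29 were measured, 0 passed, the median range was 0.21, and 22 of 29 (75.9%) had a higher mean in replicate 1 than in replicate 2, against 47.6% of all genes. The LIM-domain genes Csrp1 (0.83) and Csrp2 (0.59) had the widest ranges, and skeletal alpha actin, Acta1, the narrowest (0.03), at 4 to 6 units in the authors' values. Immediate early SRF targets were measured for 11 of 12 genes, of which 0 passed and 9 were higher in replicate 1 than in replicate 2. The growth factor response gene Egr1 had a range of 0.78 and Ier2 of 0.46, both highest in replicate 1 and lowest in replicate 2 in each group, while Fosb had 0.05. Among TGF-beta ligands, receptors and targets of TGF-beta or YAP, 13 of 14 were measured, 0 passed, and 12 of 13 (92.3%) were higher in replicate 1 than in replicate 2. Ccn2, the gene of connective tissue growth factor and a target of SRF, YAP and TGF-beta, stood at 10.52, 8.83 and 9.74 on the Cre arrays, against 10.87, 8.92 and 9.50 on the control arrays. Its range between numbers was 1.82, that of the matrix gene Tgfbi was 1.25, and that of the receptor gene Tgfbr1 was 0.04.

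Among markers of other cells, the median range between numbers was 0.52 for fibroblast and meningeal, 0.29 for astrocyte, 0.22 for oligodendrocyte, 0.16 for neuron, 0.12 for microglia, 0.11 for smooth muscle and pericyte and 0.08 for endothelial genes, against 0.13 over all genes. The lists differ in brightness, as their sums below show, and ranges of dim probes are compressed, so these medians do not rank cell types. Of the fibroblast and meningeal markers, 11 of 11 were measured and all 11 had a higher mean in replicate 1 than in replicate 2. Their summed authors' values were 798, 126 and 541 on Cre replicates 1, 2 and 3, against 1122, 204 and 608 on control replicates 1, 2 and 3. The collagen genes Col1a2 and Col3a1 had the widest ranges (2.57 and 2.50), with replicate 1 highest and replicate 2 lowest in both groups, and Slc6a13 the narrowest (0.01), at 2 to 3 units in the authors' values. Col1a2 stood at 9.45, 6.94 and 8.92 on the Cre arrays, against 9.92, 7.29 and 8.64 on the control arrays. Of the smooth muscle and pericyte markers outside the contractile genes, 6 of 10 measured were higher in replicate 1 than in replicate 2, and their sums were 158, 120 and 157 on the Cre arrays and 163, 135 and 162 on the control arrays. Among them, Myh11, the smooth muscle myosin heavy chain, read 4 to 7 units and Des 1 to 3 units in the authors' values, close to background. Rgs5 (0.56) and Anpep (0.31) had the widest ranges, Abcc9 the narrowest (0.02), and Higd1b was not above background on at least 3 arrays. Astrocyte markers summed to 6739, 7437 and 8549 units on the Cre arrays and 5074, 8901 and 7813 on the control arrays, and 4 of 12 were higher in replicate 1 than in replicate 2. The glycolytic enzyme gene Aldoc had the widest range among them (1.27) and was lowest in replicate 1 and highest in replicate 2 in both groups, with Slc1a2, a glutamate transporter gene, at 0.78 and Hepacam at 0.05.

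Of the other marker lists, microglia genes had ranges of up to 0.30 (C1qb, then C1qa at 0.21, and P2ry12 lowest at 0.04), and their sums were 145, 108 and 160 units on the Cre arrays against 254, 243 and 216 on the control arrays. Endothelial genes were measured for 5 of 8, Pecam1, Cldn5 and Tek being not above background on at least 3 arrays, and Flt1 had a range of 1.29 while Ly6c1 had 0.08 and Kdr 0.02. Endothelial sums were 142, 75 and 109 units on the Cre arrays and 193, 77 and 91 on the control arrays. Neuron genes ranged from 0.04 (Dcx) to 0.18 (Nefm) and 0.50 (Tubb3), with sums of 211, 133 and 149 units on the Cre arrays and 172, 156 and 123 on the control arrays. Oligodendrocyte genes ranged from 0.04 (Mag) to 0.50 (Cnp) and 0.56 (Olig2), with sums of 856, 632 and 652 units on the Cre arrays and 621, 1070 and 657 on the control arrays. What part any of these cells had in the levels of the contractile genes was not tested.

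The genes most like the contractile gene with the widest range, Tpm2, were sought by the root mean square difference between mean-centred log2 levels over the 6 arrays, among 17266 genes with a median of 0.77. The 6 closest genes outside the members were Ptgs2 at 0.11, the gene of the inducible cyclooxygenase, Tes at 0.14, a focal adhesion protein, Anxa1 at 0.15, an annexin, Ccn2 at 0.17, Shh at 0.17, a secreted morphogen, and Pmepa1 at 0.18, a TGF-beta target. Anxa1, the widest of the 6, stood at 12.32, 10.58 and 11.25 on the Cre arrays, against 12.82, 10.25 and 11.54 on the control arrays. All 6 were highest in replicate 1 and lowest in replicate 2 with either virus, as was Tpm2. These genes were picked for closeness to Tpm2, so their order follows from the choice and is no separate result. Of the members, Actg2 was the next in likeness to Tpm2 (0.28), followed by Tpm1 (0.34), Cald1 (0.48), Tagln (0.51), Cnn1 (0.54), Cnn2 (0.61), Acta2 (0.73) and Srf (0.80).

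**Figure D3:**
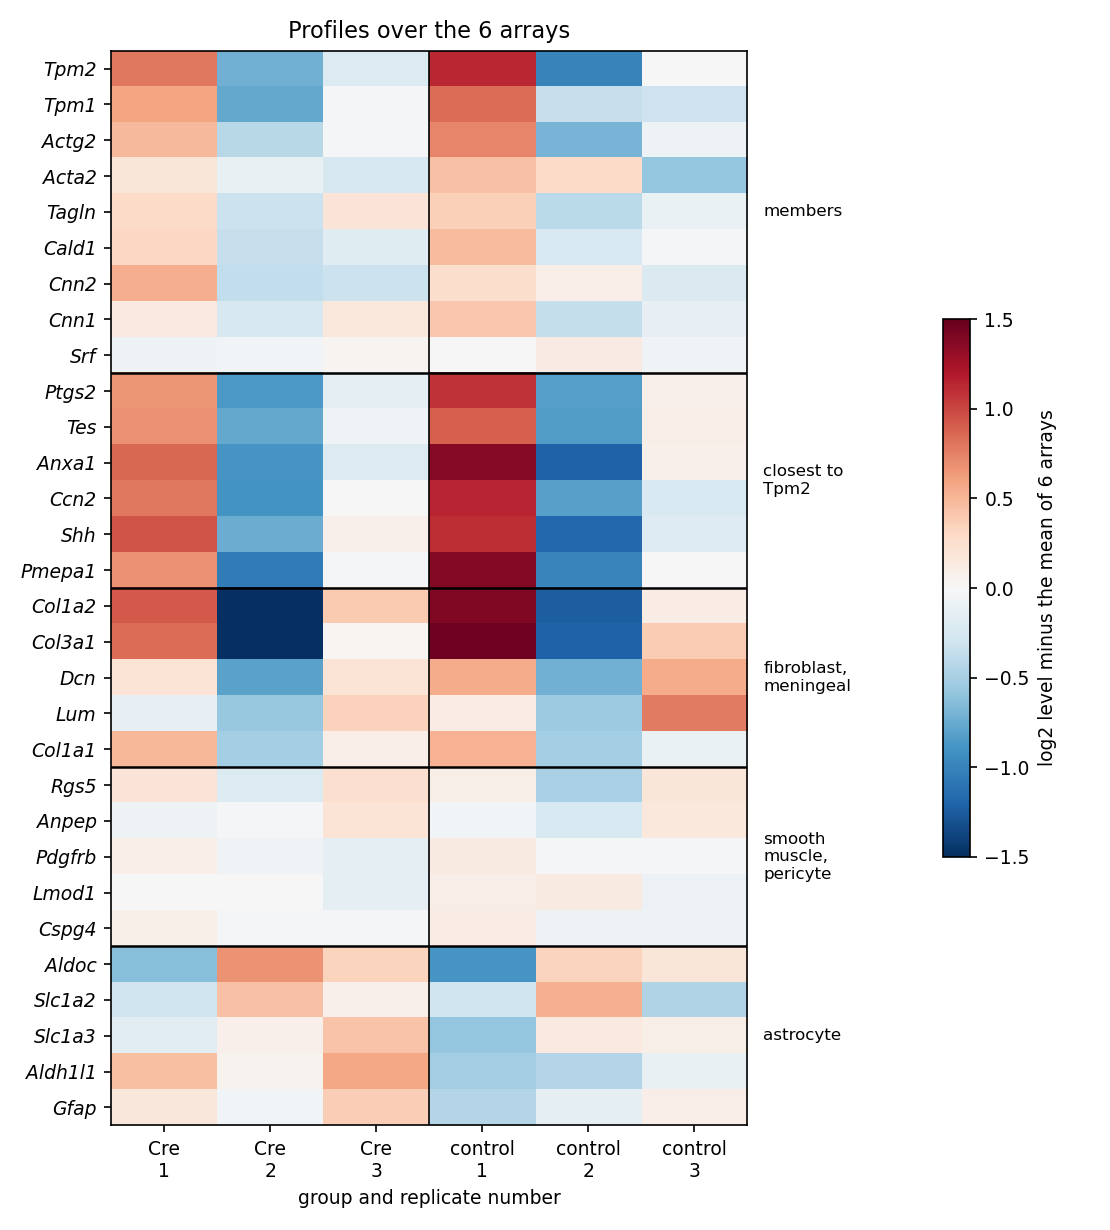
Log2 level minus the mean of the 6 arrays (colour, with the scale cut off at both ends) for the 9 contractile SRF target genes, the 6 genes closest to Tpm2 and the 5 widest-ranging fibroblast and meningeal, smooth muscle and pericyte, and astrocyte markers, on the Cre arrays (left) and control arrays (right). Replicate 1 is high and replicate 2 low for Tpm2, its closest genes and Col1a2 in both groups, while Aldoc runs the other way.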

How the data were processed

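Total RNA of 6 samples was labelled with Cy5 and measured on 1-colour arrays, as the labels' protocols state. Deposited scanner files hold a median intensity and a local background per spot, not subtracted, per the file headers. The authors' deposited value table is a linear intensity scale with a median of 25 on every array; set against the scanner files, it is close to the spot less the blank level, divided by 1 factor per array (1.44 to 1.94). Its normalisation method is not stated in the labels or headers.

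Spot medians were corrected by normexp against 2736 blank spots (limma 3.58.1 in R 4.3.3, nec, offset 50), log2 transformed and quantile normalised. Local background was higher around probe spots (179 to 322 units on average) than around blanks (57.5 to 63.0), so it served only as an alternative. Scanner-marked probe spots, 0 to 9 on an array, were dropped, and 20747 probes above the blank mean by 2 SD on at least 3 arrays were kept. The platform annotation names 1 gene for 20690 of 23473 probes, several for 0 and none for 2783, and 20556 matched RefSeq by Entrez identifier.

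Cre was compared with control by limma (lmFit, eBayes, two-sided, Benjamini-Hochberg over all kept probes, threshold 0.05), tested on simulated data. The range between replicate numbers has no test. Cre and control arrays carry the same replicate numbers in the labels, which name no shared culture or day. For numbers 1, 2 and 3 the deviations of the 2 arrays from their group means correlated at 0.498, 0.425 and 0.436 (0.495, 0.423 and 0.436 leaving the members out), each over 0.1. The arrays were therefore set out as pairs in the descriptions. The main limma fit held no replicate term, and the replicate block was an alternative. With 3 arrays a group the number of arrays limits the precision, and an exact permutation test could not go below p = 0.1.

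Members and lists were chosen with earlier results of these data known. Named genes were all members, Chd7, the 2 widest and 1 narrowest ranging genes of each list (fewer for the list not reported here), and the 6 genes closest to the member with the widest range; further genes (Mrtfb's and Myh11's levels, Des, Egr1's order, undetected markers) were named after their values were seen. Alternatives were the background correction, offset, normalisation, filter, the authors' values (pseudocount 16), the replicate block and leaving out each array.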

Additional observations from a re-analysis of the deposited data

How the results depend on the processing

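In limma 0 probes passed the adjusted threshold under any of 15 alternatives, with the replicate block also 0 (smallest adjusted p 0.393, and 1933 probes at an unadjusted p under 0.05 against 1159 without it); the smallest adjusted p of any fit was 0.0675, without control replicate 2. The block changed no call of a member. The unadjusted count otherwise ran from 241 without normalisation between arrays and 617 with median scaling to 1864 in the authors' values. The number of members whose range between numbers exceeded the absolute difference was 8 or 9 throughout, 8 with the local background column and in the authors' values, and 8 without Cre replicate 1 or without control replicate 3. Of 126 ranges recomputed for single members, 119 moved by less than the spread between replicates. Those 119 include the ranges under the other filters, which could not move, as the filter came after normalisation. The local background column moved 6, among them Cnn1 to 3.23 and Cnn2 to 3.23, where local background was higher around probe spots than around blanks, and leaving out Cre replicate 2 moved Srf to 0.16. With 1 array left out, ranges ran from 0.39 to 1.05 for Acta2, 0.34 to 0.81 for Cnn1 and 0.39 to 0.95 for Cnn2, 7 or 8 of 9 members reached 0.5, and 2 to 4 reached 1, against 7 with the local background column. The range of Tpm2 ran from 1.58 to 2.01 under other processing and from 1.55 to 2.10 with 1 array left out. Of 135 recomputed differences, 28 turned sign, none of them called, and for each the cause was not tested. The 135 include the other filters and the replicate block, which return the main difference by construction. Fits with 1 array left out held no replicate term. The same-numbered array then stayed in without its partner, so spread between numbers enters the difference. With the local background column Actg2 stood at -0.023, Cnn1 at -1.20, Cnn2 at -2.49, Cald1 at -0.87 and Tagln at 0.65 (limma unadjusted p 0.048, adjusted 0.794, and then above its range of 0.62), with median scaling Cnn1 at -0.0070, and without normalisation Tagln at -0.0089 and Cnn1 at -0.019. In the authors' values Actg2 stood at -0.068, Tagln at -0.11 and Cnn1 at -0.12, beside a median of -0.08 over all probes. With 1 array left out, differences ran from -0.42 to 0.092 for Acta2, -0.32 to 0.40 for Actg2, -0.076 to 0.31 for Tagln, -0.12 to 0.26 for Cnn1, -0.39 to 0.062 for Cnn2, -0.46 to 0.26 for Tpm1, -0.61 to 0.46 for Tpm2, -0.34 to 0.058 for Cald1 and -0.081 to 0.0031 for Srf. Dim probes, Srf among them, are limited by signal over background.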
